A study of Mus musculus with 6 samples.

Results

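Committed and newly formed oligodendrocyte precursors are the cells between the dividing precursor and the myelinating oligodendrocyte. A marker rule for them was met by 141 of 50287 cells of the hippocampus of old mice (0.28%). A cell was counted when Gpr17, Enpp6, Bmp4 and 9630013A20Rik together had at least 3 unique molecular identifiers (UMIs, each a tag of 1 captured RNA molecule) and at least 8 per 10000 UMIs of the cell, and when Bcas1 and Tns3 together had at least 3 UMIs. The cells are described against 820 oligodendrocyte precursors, chosen by Pdgfra, Cspg4, C1ql1 and Cacng4 with a UMI of Olig1, Olig2 or Sox10, and 5685 mature oligodendrocytes, chosen by Mog, Mag, Mobp, Ermn, Aspa and Cldn11. Of the 6646 cells in these 3 stages, 2.12% met the rule for committed and newly formed cells. Of these 141 cells, 31 also met the marker gate of mature oligodendrocytes, and 87 met the gate of no other class. The study exposed 3 elderly mice to the inhaled anaesthetic sevoflurane at 2% for 6 h (Sevoflurane), and 3 elderly mice to air (Control). The hippocampus was taken 24 h later, digested with collagenase, stored frozen as a cell suspension and sequenced as 1 droplet library per mouse. Strain, sex, age in months and genotype are not given in the labels, and the question, how sevoflurane alters gene expression in old mice, is that of the series title. As described, old age and the steps of tissue handling were common to both groups.

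In the adult brain, oligodendrocyte precursors divide slowly and a fraction of them leaves the cycle and differentiates. On the way they pass through a short stage marked by Gpr17, a G protein-coupled receptor that restrains maturation, and then by Enpp6, a choline phosphodiesterase of newly forming oligodendrocytes, before the myelin genes reach their full level. This stage is known as the step at which adult myelin formation is controlled, and its cells either go on to ensheath axons or are lost.

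The libraries held 8609 to 9758 kept cells in Sevoflurane and 7042 to 8705 in Control, with a median of 5515 to 6124 UMIs per cell in Sevoflurane and 5820 to 6459 in Control. No pair of libraries shared more than 0.333% of the barcodes of the smaller one. The library Sevoflurane 1 stood apart: its committed and newly formed cells held 273 UMIs of Xist, the transcript of the inactive X chromosome, against 0 in each of the other 5 libraries. Without this library the difference in the share of cells, given below, was 0.0408 in place of 0.019 percentage points, that in the share of the 3 stages 0.503 in place of 0.162, and that per 100 precursors 3.56 in place of 1.63. Gene results that change without it are given where they stand. The summed counts of the 141 cells came to 109204, 111966 and 190974 UMIs in Sevoflurane and 102600, 103693 and 111643 UMIs in Control, so that genes of low level were poorly measured. P-values below measure the spread between 6 libraries, 1 per mouse.

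The genes of the rule describe how the cells were chosen, and their values are given throughout without a test. Bcas1, a gene of oligodendrocytes that start to myelinate, had 402 ± 59.9 CPM (the UMI count scaled to the summed UMIs of the stage in a library, mean ± SD over 6 libraries) in precursors, 4187 ± 813 CPM in committed and newly formed cells and 508 ± 56.9 CPM in mature oligodendrocytes. Enpp6 had 6.17 ± 2.63, 778 ± 155 and 63.8 ± 16.5 CPM in the same order of stages. The long non-coding RNA 9630013A20Rik had 32.5 ± 13.5, 2419 ± 921 and 13 ± 8.67 CPM. Gpr17 was already present in precursors, at 66.5 ± 21.9 CPM, against 230 ± 84.9 CPM in committed and newly formed cells and 6.86 ± 1.59 CPM in mature oligodendrocytes. Bmp4, a secreted ligand of the BMP pathway, had 7.12 ± 4.59, 202 ± 78.1 and 0.867 ± 0.593 CPM. Tns3, an adhesion protein of the tensin family, had 275 ± 16.3, 1879 ± 396 and 149 ± 23.1 CPM.

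The 4 stage genes were found in different mixtures. All 4 had a UMI in 41 of the 141 cells, and Enpp6 with 9630013A20Rik but neither of the others in 23. Single genes carried 13 cells by Enpp6, 8 by 9630013A20Rik and 2 by Gpr17. 9630013A20Rik was detected in 121 cells, Enpp6 in 112, Gpr17 in 77 and Bmp4 in 68, while Bcas1 was detected in 139 and Tns3 in 131. The median cell had 4458 UMIs, within a range of 1187 to 18027.

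The window around the transcription start is shown for Enpp6 and 9630013A20Rik, the pair of rule genes with the most UMIs among the 4 stage genes. Each run is 300 bases from RefSeq on build GRCm38.p6, 250 before the start to 50 after it, written 5′ to 3′ on the strand of the gene, and capitals mark a CAGCTG, the letters of an E-box that basic helix-loop-helix factors can bind. Enpp6 lies at chr8:46986637-46986936 on the plus strand and 9630013A20Rik at chr14:84476375-84476674 on the minus strand.
Enpp6: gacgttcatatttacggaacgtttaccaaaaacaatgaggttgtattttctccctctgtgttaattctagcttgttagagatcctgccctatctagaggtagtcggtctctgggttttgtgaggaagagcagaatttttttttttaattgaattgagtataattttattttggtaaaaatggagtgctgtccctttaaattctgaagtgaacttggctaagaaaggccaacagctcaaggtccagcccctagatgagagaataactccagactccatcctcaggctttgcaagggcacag
9630013A20Rik: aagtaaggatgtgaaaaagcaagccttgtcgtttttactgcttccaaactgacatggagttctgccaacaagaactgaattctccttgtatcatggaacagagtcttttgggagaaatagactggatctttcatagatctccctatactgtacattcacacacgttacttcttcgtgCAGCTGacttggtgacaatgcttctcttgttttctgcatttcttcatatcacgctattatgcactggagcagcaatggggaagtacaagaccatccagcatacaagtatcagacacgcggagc
The letters CAGCTG occurred once for 9630013A20Rik and in none of the windows of Enpp6, Tns3 and Bmp4, against 16.3% of 32851 promoter windows of the same length searched on both strands. Neither ACAAAG, letters of a SOX-type motif, nor ATCAAAG, letters of a TCF-type motif, occurred in these 4 windows on either strand. Over all windows these occurred in 18.7% and 3.73%.

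The label was set beside markers. The precursor and mature marker lists hold all genes of the precursor and mature gates. The high sums of the neighbours thus follow in part from how these were chosen. Summed over the 12 precursor markers, committed and newly formed cells had 10265 to 15308 CPM per library, against 18833 to 24244 CPM in precursors and 557 to 940 CPM in mature oligodendrocytes. Summed over the 14 mature markers, they had 938 to 2690 CPM, against 406 to 569 CPM in precursors and 6065 to 7261 CPM in mature oligodendrocytes. Markers of neurons summed to 3211 to 5320 CPM, a range like the 3858 to 5085 CPM of mature oligodendrocytes, and markers of astrocytes to 298 to 645 CPM. The rule was met by 0 of 3189 cells of the astrocyte gate, 0 of 1135 of the microglia gate and 0 of 646 of the endothelial gate, which allows shares of up to 0.0941%, 0.264% and 0.464%. It was met by 0.0426% of the cells that passed a neuron gate, whose median depth of 8650 UMIs was above the 4458 UMIs of the committed and newly formed cells.

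A group of cells also met the gates of other classes. Of the 141 cells, 31 also passed the gate of mature oligodendrocytes, 14 the neuron gate and 13 the precursor gate, and 87 passed none of them. Genes that enter neither the rule nor the gates differed in the 31 cells, given here as a description. Fyn stood at 838 CPM over all UMIs of the 31 cells and at 3820 CPM in the 110 others, and Tnr at 1230 and 10100 CPM. Mbp stood at 6780 and 2560 CPM. In the plot of the 141 cells by their precursor and myelin genes, the 31 lie mostly among mature oligodendrocytes, and that plot holds the genes of the mature gate.

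**Figure D1:**
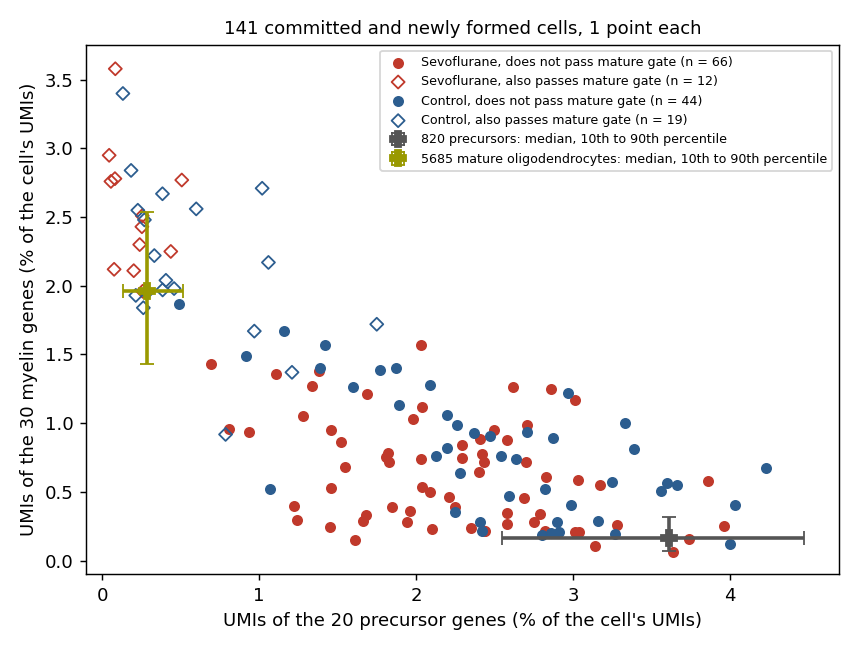
Each point is 1 of the 141 cells, with the share of its UMIs in 20 precursor genes on the x axis and in 30 myelin genes on the y axis (both in %), red for Sevoflurane and blue for Control, open diamonds for the 31 cells that also pass the mature gate. Crosses give the median and the 10th to 90th percentile of precursors and of mature oligodendrocytes; the median of the 141 cells, at 2.09% and 0.82%, lies between them.

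The cells just inside and just outside the rule are given next. The 15 cells with exactly 3 stage-gene UMIs had 1670 CPM of Bcas1, 1380 CPM of Fyn and 363 CPM of Mog, and the 13 cells just outside, with 2 stage-gene UMIs, had 1310, 241 and 722 CPM. The 14 cells with exactly 3 UMIs of Bcas1 and Tns3 had 86.3 CPM of Fyn and 927 CPM of Mog, against 206 and 692 CPM in the 18 cells with 2 such UMIs. The cells that the threshold on Bcas1 and Tns3 only just admitted thus had less Fyn and more Mog than the cells admitted by 3 stage-gene UMIs.

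Cell by cell, the 20 precursor genes took a median of 3.61% of the UMIs in precursors, 2.09% in committed and newly formed cells and 0.289% in mature oligodendrocytes. The 30 myelin genes took 0.163%, 0.82% and 1.96%. Of the 141 cells, 113 were above the 90th percentile of precursors in the myelin genes, and 106 were below the 10th percentile of mature oligodendrocytes. In the precursor genes, 96 were below the 10th percentile of precursors and 116 above the 90th percentile of mature oligodendrocytes. The 2 lists hold the genes of the precursor and mature gates, so these counts follow in part from how the neighbours were chosen.

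Against the neighbouring stages, committed and newly formed cells had more genes above both than below both. This contrast follows from how the cells were chosen, so it is a description, with no test. Of 1280 genes with at least 200 CPM in a stage, 62 (4.84%) were at least 2-fold above precursors and above mature oligodendrocytes in 6 of 6 libraries. By the same rule 2 genes (0.156%) were below both. The counts over the 1280 genes include genes of the rule and the gates, whose direction follows in part from selection. Without a minimum fold, and outside the genes of the rule and the gates, 174 of 1265 genes were higher than in both neighbours in 6 of 6 libraries and 88 were lower. Counted one neighbour at a time, 130 genes (10.2%) were above precursors and 88 (6.88%) below them, and 166 (13%) were above mature oligodendrocytes and 99 (7.73%) below them. Ratios here are medians over the 6 libraries of log2(CPM + 10).

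Frmd4a, which encodes a scaffold protein of cell polarity, ranked first by the smaller of its ratios to the neighbours. It stood at 235 ± 67.5 CPM in precursors, 11839 ± 3406 CPM in committed and newly formed cells and 199 ± 35.1 CPM in mature oligodendrocytes, a log2 ratio of 5.63 over precursors and 5.88 over mature cells. Its lowest library in committed and newly formed cells, at 7474 CPM, was far above the highest value of 330 CPM in precursors.

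Other genes named by this rule are given by what they encode. Tcf7l2, a transcription factor of the Wnt pathway needed for oligodendrocyte differentiation, had 112 ± 22.3 CPM in precursors, 1349 ± 494 CPM in committed and newly formed cells and 56.3 ± 14.6 CPM in mature oligodendrocytes. Its relative Tcf7l1 had 52.7, 377 and 10.8 CPM. Fyn, a kinase of the Src family that acts in process outgrowth and myelination, had 336 ± 37.4, 3095 ± 338 and 174 ± 49.5 CPM.

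Epb41l2, a protein 4.1 of the membrane skeleton, had 63.4 ± 16.9 CPM in precursors, 1280 ± 224 CPM in committed and newly formed cells and 106 ± 14.7 CPM in mature oligodendrocytes. Kif19a, a kinesin motor, had 5.18 ± 2.78, 225 ± 72.9 and 1.74 ± 0.758 CPM. Sirt2, a tubulin deacetylase of oligodendrocytes, had 125 ± 21.2, 908 ± 112 and 148 ± 16.1 CPM. In each of these genes the 6 libraries of committed and newly formed cells lay above all libraries of both neighbours.

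The remaining genes of the 20 were Cnksr3, Nhsl2, Prom1, Mpzl1, Parvb, Pdcd4, Rras2, Fam13c, the Rac regulator Chn2, the lincRNA 9530059O14Rik, Tmem108, Bfsp2 and Bcas1os2, with log2 ratios of 2.65 to 5.86 over precursors and 2.50 to 4.45 over mature oligodendrocytes. Bcas1os2 is annotated as antisense within Bcas1, and whether the counting used strand is not given in the sources used here. Bfsp2, a lens filament gene, lies just downstream of Tmem108 on the same strand of chromosome 9 (GRCm38), and both were high. How the counting treated reads between such neighbours was not tested.

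A set of 11 genes (0.859%) lay at least 2-fold below precursors and at least 2-fold above mature oligodendrocytes in 6 of 6 libraries, namely Adarb2, Brinp3, Cacng4, Nxph1, Plppr1, Ppp2r2b, Ptprz1, Slc35f1, Sox5, Xylt1 and Zeb1. Zeb1, a zinc finger transcription factor, had 1780 CPM in precursors, 322 CPM in committed and newly formed cells and 56.5 CPM in mature oligodendrocytes. Nxph1, which encodes a secreted ligand of neurexins, had 2210, 525 and 48.7 CPM. The reverse order, above precursors and below mature oligodendrocytes, held for Mog and Plcl1 (0.156%). Cacng4 is a gene of the precursor gate and Mog of the mature gate, so their place follows in part from selection.

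Only Hepacam, a cell adhesion gene, and Slc1a3, a glutamate transporter, were at least 2-fold below both neighbours in 6 of 6 libraries (0.156% of the 1280 genes). Both are also known as astrocyte genes. Hepacam had 151, 34.3 and 252 CPM in precursors, committed and newly formed cells and mature oligodendrocytes, and Slc1a3 had 255, 53.7 and 176 CPM. Marchf1, a ubiquitin ligase gene, had 1700, 237 and 791 CPM and was below both neighbours in 6 of 6 libraries, though not by 2-fold against both in each. The other genes named as lower than both were Arhgap21, Ptn, Htra1, Oxr1, Lrp1b, Samd4 and the glucocorticoid-responsive Fkbp5, with log2 ratios of -1.66 to -1.11 to precursors and -1.88 to -1.17 to mature oligodendrocytes.

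Of 30 stage genes outside the rule, 25 reached 50 CPM in a stage. Of these, 13 were at least 2-fold above both neighbours in 6 of 6 libraries, against 1.52% of the 5213 genes at that level. The gene lists, here and below, were chosen with earlier results of these data known, and Tcf7l2 and Kif19a were named above by the same contrast. The list counts beside the 5213 genes are thus a description and not independent evidence. Nfasc, the axonal and paranodal adhesion protein neurofascin, had 201 ± 21.1 CPM in precursors, 3832 ± 1207 CPM in committed and newly formed cells and 811 ± 83 CPM in mature oligodendrocytes. Itpr2, a calcium release channel, had 478 ± 44, 1211 ± 221 and 40 ± 8.96 CPM. Neu4, a sialidase, differed little from precursors, with 179 ± 28.1 and 236 ± 68.9 CPM in precursors and committed and newly formed cells, and had 3.02 ± 1.43 CPM in mature oligodendrocytes.

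**Figure D2:**
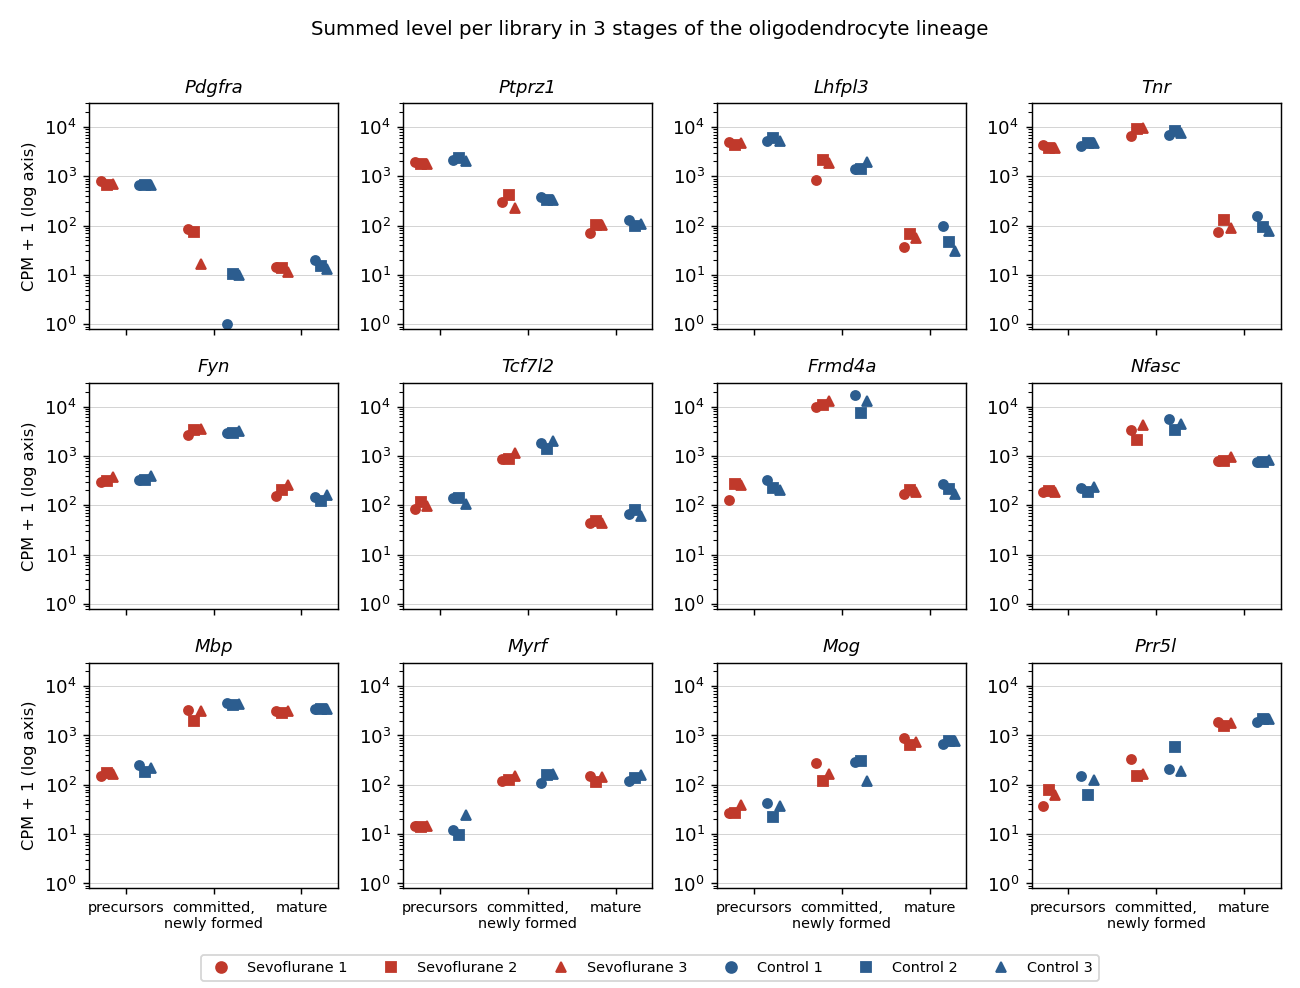
Summed level of 12 genes per library on a log axis (CPM + 1), for precursors, committed and newly formed cells and mature oligodendrocytes from left to right, with Sevoflurane libraries in red and Control libraries in blue. Frmd4a, Tcf7l2 and Fyn peak in the middle stage, Pdgfra and Ptprz1 are high in precursors, and Mog and Prr5l are high in mature oligodendrocytes.

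Precursor genes were lost unevenly. Of the 20 genes of this list, 11 were at least 2-fold below precursors in 6 of 6 libraries, against 3.18% of all 5213 genes. By the same rule 11 were above mature oligodendrocytes, against 4.37% of all 5213 genes. Pdgfra, the growth factor receptor that drives precursor division, had 700 ± 60.2 CPM in precursors, 31.4 ± 35.8 CPM in committed and newly formed cells and 13.7 ± 2.78 CPM in mature oligodendrocytes, and had a UMI in 13 of the 141 cells. Pdgfra, Cspg4, C1ql1 and Cacng4, all in this list, are the genes of the precursor gate. The count below precursors thus follows in part from how precursors were chosen. Ptprz1, a receptor phosphatase, had 2016 ± 224, 330 ± 65.3 and 101 ± 19.4 CPM.

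Other genes of the list were retained. Tnr, the matrix protein tenascin-R, had 4219 ± 445 CPM in precursors, 7951 ± 1146 CPM in committed and newly formed cells and 102 ± 32.2 CPM in mature oligodendrocytes. Sox6, a transcription factor that holds back differentiation, had 1344 ± 301, 1425 ± 323 and 34.6 ± 13.3 CPM. Lhfpl3 lay between, at 5070 ± 599, 1599 ± 487 and 54.9 ± 25.1 CPM.

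Of the lineage transcription factors, 21 of 30 reached 50 CPM. In 6 of 6 libraries 5 were at least 2-fold above precursors, against 3.36% of all 5213 genes. By the same rule 2 were below precursors, against 3.18% of all 5213 genes. Above mature oligodendrocytes were 6, against 4.37% of all 5213 genes. The 2 below precursors were Sox5, a relative of Sox6, and Etv5, an ETS factor with 136, 11.7 and 20.8 CPM in precursors, committed and newly formed cells and mature oligodendrocytes. Myrf, the master regulator of myelin genes, had 14 ± 5.21 CPM in precursors, 136 ± 22.2 CPM in committed and newly formed cells and 137 ± 17.7 CPM in mature oligodendrocytes. St18, a zinc finger factor, had 101 ± 27.1, 2167 ± 731 and 2562 ± 622 CPM. Over all 141 cells, both were thus at the level of mature oligodendrocytes within their spread. These values include the 31 cells that also pass the mature gate. Sox10, which acts throughout the lineage, had 352 ± 46.5, 372 ± 90.8 and 176 ± 28.4 CPM. None of 21 cell cycle genes reached 50 CPM in a stage.

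Myelin genes split by how far they had come. Of 27 myelin and mature genes at 50 CPM, 7 were at least 2-fold above precursors in 6 of 6 libraries, against 3.36% of all 5213 genes. By the same rule 14 were below mature oligodendrocytes, against 3.22% of all 5213 genes. The list holds Mog, Mag, Mobp, Ermn, Aspa and Cldn11, the genes of the mature gate. The count below mature oligodendrocytes thus follows in part from how those cells were chosen. Mbp, which encodes myelin basic protein, had 189 ± 36.8 CPM in precursors, 3573 ± 927 CPM in committed and newly formed cells and 3248 ± 267 CPM in mature oligodendrocytes. The libraries of committed and newly formed cells overlapped those of mature oligodendrocytes in Mbp, with the 31 cells that also pass the mature gate included.

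Genes of the finished cell lagged. Mog, a late myelin glycoprotein of the mature gate, had 31.2 ± 7.81 CPM in precursors, 210 ± 88 CPM in committed and newly formed cells and 748 ± 78.8 CPM in mature oligodendrocytes. Prr5l, which encodes a partner of the mTOR complex, had 84.5 ± 42.4, 272 ± 165 and 1910 ± 226 CPM. The 31 cells that pass the mature gate carried 1117 of the 2567 UMIs of Mbp.

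The cells could be ordered further by their stage genes, again as a description. More UMIs of Enpp6 and 9630013A20Rik than of Gpr17 and Bmp4 were found in 119 cells, taken as newly formed, fewer in 14 cells from 5 libraries, taken as committed, and 8 were tied. Genes that do not enter this split differed too. The committed cells had 2700 CPM of Lhfpl3, 1120 CPM of Frmd4a, 731 CPM of Nfasc and 507 CPM of Mbp, and the newly formed cells had 1530, 13300, 4220 and 3860 CPM. The committed values rest on 133, 55, 36 and 25 UMIs. The 31 cells that also pass the mature gate, whose Mbp is given above, were not taken out of this split. Their part in these differences was not tested.

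GABA and glutamate receptors and channels, among them targets of anaesthetics, were partly lower than in precursors. Of 30 such genes, 22 reached 50 CPM in a stage. Of these, 3 were at least 2-fold below precursors in 6 of 6 libraries, against 3.18% of all 5213 genes. By the same rule 1, Gria2, was above mature oligodendrocytes, against 4.37% of all 5213 genes. Gria2, the AMPA receptor subunit that limits calcium entry, had 1501 ± 84.5 CPM in precursors, 1886 ± 311 CPM in committed and newly formed cells and 743 ± 50.8 CPM in mature oligodendrocytes. Grin3a, an NMDA receptor subunit, had 437 ± 79.1, 82.2 ± 51.1 and 28.5 ± 8.72 CPM. Kcnk10, a background potassium channel, had 195 ± 19.9, 16.6 ± 15.4 and 11.2 ± 3.36 CPM.

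The number of committed and newly formed cells did not differ between the groups beyond the spread of the libraries. They made up 0.246%, 0.29% and 0.332% of the cells in Sevoflurane 1 to 3 and 0.213%, 0.276% and 0.323% in Control 1 to 3, from 24, 25 and 29 cells and from 15, 24 and 24 cells. The groups overlapped, and so did the exact 95% binomial intervals of all 6 libraries, which cover counting error only and run from 0.119 to 0.351% for the lowest share and from 0.222 to 0.477% for the highest. The means were 0.289 ± 0.043% in Sevoflurane and 0.27 ± 0.055% in Control (SD, n = 3 each; two-sided exact permutation test, p = 0.6, where 0.1 is the smallest p that 3 against 3 can give).

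**Figure D3:**
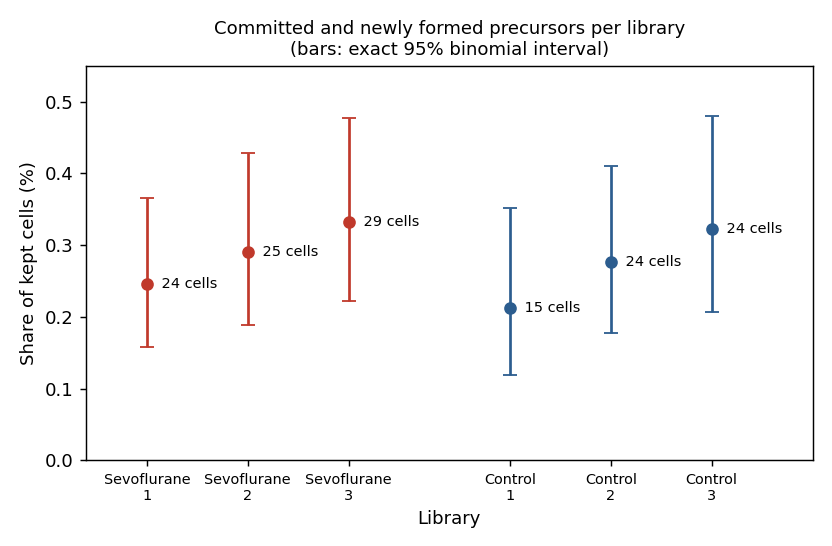
Share of committed and newly formed cells among all kept cells (%, y axis) in each library (x axis), Sevoflurane in red and Control in blue, with the exact 95% binomial interval and the number of cells. The shares run from 0.246% to 0.332% in Sevoflurane and from 0.213% to 0.323% in Control, and all intervals overlap.

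Relative to precursors there were 18.3 ± 4.02 committed and newly formed cells per 100 precursors in Sevoflurane and 16.7 ± 5.33 in Control (p = 0.7, exact permutation test). Of all cells of the 3 stages they were 2.28 ± 0.592% in Sevoflurane and 2.12 ± 0.788% in Control (p = 0.9, exact permutation test). Newly formed cells were 83 ± 6.83% of the committed and newly formed cells in Sevoflurane and 87.5 ± 11% in Control (SD, n = 3 each), a description, since genes of the rule make this split. When every cell was thinned to 2000 UMIs, the first 3 differences turned negative, at -0.00231 percentage points, -1.3 per 100 precursors and -0.309 percentage points. A difference in cell number, in recovery or in RNA per cell cannot be told apart in such shares.

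Among gene levels, Ttr was the single gene that differed between the groups at an adjusted p under 0.05 in committed and newly formed cells. edgeR's quasi-likelihood test with Benjamini-Hochberg adjustment was run on 2261 genes, and called 1 lower and 0 higher (0.0442%), where 135 genes had an unadjusted p under 0.05 and DESeq2 called 2. Ttr encodes transthyretin, the thyroid hormone carrier made by the choroid plexus. It had 0, 0 and 0 UMIs in Sevoflurane 1 to 3 and 24, 11 and 70 UMIs in Control 1 to 3. All Sevoflurane libraries lay below all Control libraries, and Ttr was at least 45.4-fold lower in Sevoflurane when 3 counts over the group are taken as the floor (adjusted p = 0.00517).

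A lower Ttr in Sevoflurane was also seen in neurons and microglia, and the source of these UMIs was not tested. Per cell, Ttr had 0.016, 0.0147 and 0.014 UMIs in neurons of Sevoflurane 1 to 3 and 1.12, 0.507 and 3.13 UMIs in those of Control 1 to 3. Microglia had 0.0174, 0.00621 and 0.0521 UMIs per cell in Sevoflurane and 0.988, 0.491 and 2.8 in Control. Committed and newly formed cells of Control had 1.6, 0.458 and 2.92 UMIs per cell, and the 3 Control libraries had the same order as in neurons and microglia. Of the other 7 choroid plexus markers, Enpp2, which oligodendrocytes also express, had 340 UMIs in the 141 cells, Aqp1 had 0, and Kl, Folr1, Clic6, Sostdc1 and Kcne2 had 1 to 5 each. The call was lost without Control 3 (adjusted p = 0.0527) and without Sevoflurane 3 (adjusted p = 0.0904).

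The next genes by p did not pass the adjustment. Cdh20, which encodes an adhesion cadherin, had 641, 634 and 717 CPM in Sevoflurane 1 to 3 and 1569, 1398 and 1335 CPM in Control 1 to 3. The groups did not overlap, and the UMIs came from 111 of the 141 cells. The log2 fold change was -1.13 ± 0.24 (SE, adjusted p = 0.289 in edgeR), with an adjusted p of 0.0336 in DESeq2 and of 0.0126 in edgeR over the cells that pass no other gate, within a range of 0.0126 to 0.982 over 13 alternatives.

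Side by side, Cdh20 had log2 fold changes of -0.30 in precursors (edgeR adjusted p = 0.33) and -1.13 in committed and newly formed cells. In mature oligodendrocytes it had 482, 444 and 402 CPM in Sevoflurane 1 to 3 and 887, 825 and 799 CPM in Control 1 to 3, without overlap, and was called lower (edgeR adjusted p = 0.00695). These comparisons come from the same 6 libraries.

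Tcf7l2 had 861, 866 and 1131 CPM in Sevoflurane and 1842, 1369 and 2024 CPM in Control. All 3 Sevoflurane libraries lay below all Control libraries, and the log2 fold change of -0.89 ± 0.26 did not pass (edgeR adjusted p = 0.648). Over the cells that pass no other gate it was -0.42 (edgeR adjusted p = 0.727). It was -0.48 in precursors (adjusted p = 0.317) and -0.72 in mature oligodendrocytes (adjusted p = 0.0637). Ust, a sulfotransferase that acts on proteoglycan chains, had 980, 1215 and 1382 CPM in Sevoflurane and 2388, 2295 and 1621 CPM in Control, also without overlap (log2 fold change -0.84 ± 0.25, edgeR adjusted p = 0.648).

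Grm3, a metabotropic glutamate receptor gene, had 147, 89.3 and 89 CPM in Sevoflurane and 263, 318 and 188 CPM in Control. The groups did not overlap, from 124 UMIs in 37 cells. The log2 fold change was -1.28 ± 0.34 in committed and newly formed cells (edgeR adjusted p = 0.582) and -1.28 ± 0.20 in precursors, where the test called it (edgeR adjusted p = 0.00501). Pard3, a polarity gene, had 137, 214 and 110 CPM in Sevoflurane and 331, 415 and 269 CPM in Control (log2 fold change -1.19 ± 0.32, edgeR adjusted p = 0.582).

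Adarb2, a relative of RNA-editing enzymes, had 522, 1277 and 943 CPM in Sevoflurane and 370, 376 and 520 CPM in Control. Its lowest Sevoflurane library was level with its highest Control library (log2 fold change 1.08 ± 0.32, edgeR adjusted p = 0.648). Of its 515 UMIs, 83 lay in 1 cell of Sevoflurane 3, and the log2 fold change was 0.71 without doublets, 0.60 with a stricter gate and 0.13 over the cells that pass no other gate. Ntrk3, a neurotrophin receptor gene, had 302, 330 and 173 CPM in Sevoflurane and 146, 77.2 and 98.5 CPM in Control (1.26 ± 0.36, edgeR adjusted p = 0.648). Without doublets its log2 fold change was 0.61, and it was -0.45 in precursors (edgeR adjusted p = 0.102) and -0.10 in mature oligodendrocytes (edgeR adjusted p = 0.769). Dgkh, Atf7ip and Rnf121, the remaining genes of the 10 with the smallest p, had log2 fold changes of 2.02, 1.30 and -1.74 (edgeR adjusted p = 0.572, 0.582 and 0.572).

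**Figure D4:**
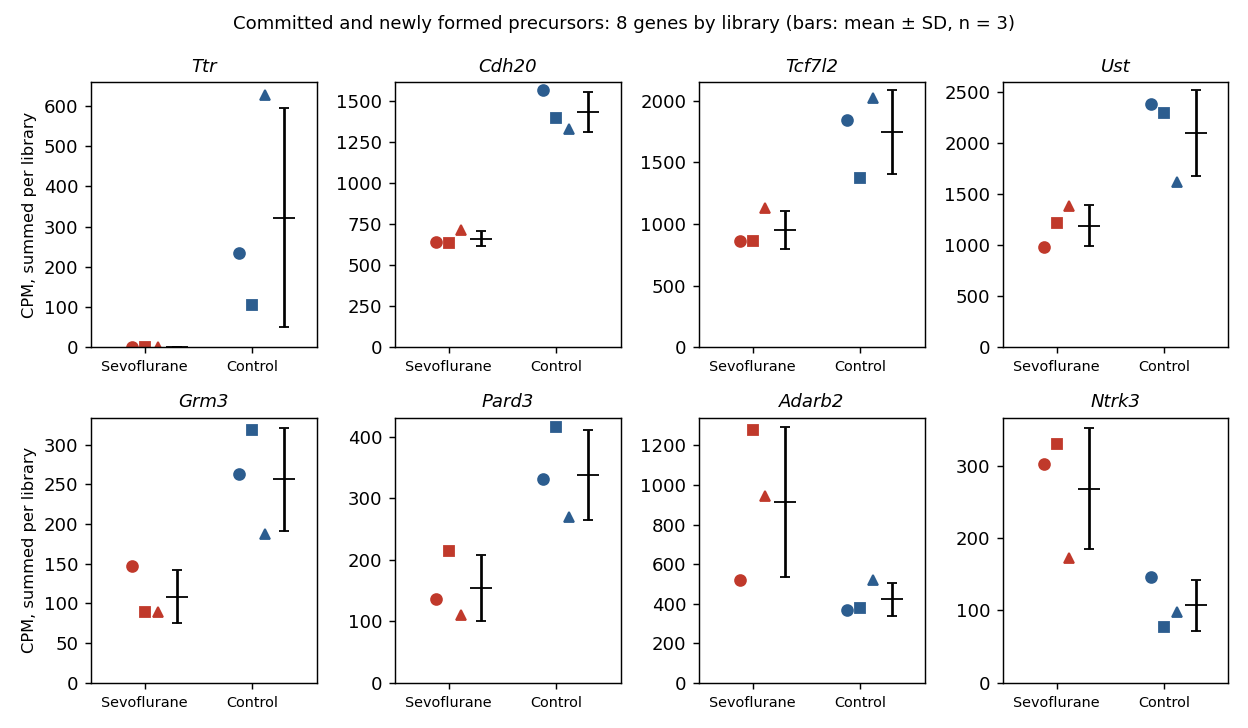
Summed level of 8 genes in committed and newly formed cells (CPM, y axis) per library, Sevoflurane in red on the left and Control in blue on the right of each panel, with the mean ± SD of 3 libraries. Ttr is the gene called by the test; Ttr, Cdh20, Tcf7l2, Ust, Grm3 and Pard3 are below all Control libraries in every Sevoflurane library.

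The genes of the rule are given between the groups as a description, since their UMIs chose the cells. Gpr17 had 201, 402 and 194 CPM in Sevoflurane and 175, 212 and 197 CPM in Control. 9630013A20Rik had 2198, 1331 and 2325 CPM in Sevoflurane and 3246, 1668 and 3744 CPM in Control. The groups overlapped in all 6 genes.

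Over the lists, no gene was called in committed and newly formed cells. The libraries of the groups did not overlap in 11.3% of the 2261 genes, 6.24% higher and 5.04% lower, and the median log2 fold change over all genes tested was 0.017. Of 19 stage genes outside the rule, 14 were negative, with a median of -0.20, and 3 were lower without overlap (Tcf7l2, Ust and Kif19a). Of 15 precursor genes, 7 were negative, with a median of 0.03. Of 16 lineage transcription factors, 14 were negative, with a median of -0.37, and 4 were lower and Sox10 higher without overlap. The neighbours had the same tilt in this list. In precursors 22 of 25 were negative, with a median of -0.344 and 1 called lower. In mature oligodendrocytes 22 of 27 were negative, with a median of -0.175 and 0 called.

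Of the lineage factors, Nkx2-2, which starts differentiation, had 82.4, 62.5 and 47.1 CPM in Sevoflurane and 117, 96.4 and 125 CPM in Control (log2 fold change -0.89 ± 0.42, edgeR adjusted p = 0.825). Sox10 had 449, 420 and 440 CPM in Sevoflurane and 244, 270 and 412 CPM in Control (0.47 ± 0.29, edgeR adjusted p = 0.836). Neither passed the test.

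Of 18 myelin and mature genes tested, 17 were negative, with a median log2 fold change of -0.41, and none was called. In precursors 18 of 23 were negative, with a median of -0.191 and 0 called. In mature oligodendrocytes 24 of 29 were negative, with a median of -0.131 and 1 called lower. In committed and newly formed cells, single values were as follows. Mbp had 3352, 2010 and 3205 CPM in Sevoflurane and 4542, 4050 and 4282 CPM in Control, without overlap (log2 fold change -0.60 ± 0.25, edgeR adjusted p = 0.732). Over the cells that pass no other gate it was -0.21 (edgeR adjusted p = 0.9). The cells that also pass the mature gate numbered 6, 1 and 5 in Sevoflurane and 5, 10 and 4 in Control, or 25, 4 and 17.2% of the committed and newly formed cells in Sevoflurane and 33.3, 41.7 and 16.7% in Control, with overlap. Over the cells that pass no other gate, the median was 0.01 over 9 genes of the list. Without Sevoflurane 1 the median over all cells was -0.77.

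**Figure D5:**
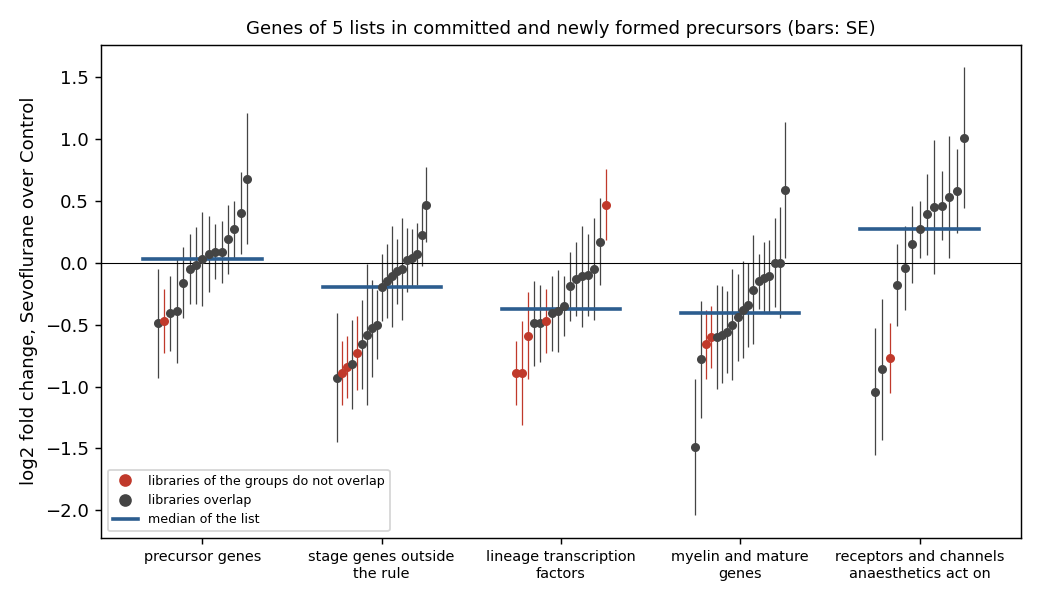
Log2 fold change of Sevoflurane over Control (y axis, bars SE) for each tested gene of 5 lists in committed and newly formed cells, sorted within a list, with the median of the list as a blue line and genes without overlap of the libraries in red. The medians are 0.03 for precursor genes, -0.20 for stage genes, -0.37 for lineage transcription factors, -0.41 for myelin genes and 0.27 for receptors and channels, and no gene shown was called.

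Of 13 GABA, glutamate and channel genes tested, 8 were positive, with a median of 0.27. Gria4, an AMPA receptor subunit gene, had 458, 348 and 529 CPM in Sevoflurane and 897, 627 and 734 CPM in Control (log2 fold change -0.77 ± 0.28, edgeR adjusted p = 0.648). No cholesterol synthesis gene reached the filter in committed and newly formed cells. In precursors 13 were tested, 12 of them positive with a median of 0.67 and none called. Microglial markers, of which 1 of 12 was at 0, summed to 119, 152 and 126 CPM in Sevoflurane and 39, 106 and 26.9 CPM in Control, without overlap. Their part in the results was not tested.

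The same test called 34 of 8517 genes in precursors (0.399%), 3 higher (0.0352%) and 31 lower (0.364%), and 41 of 12424 in mature oligodendrocytes (0.33%), 11 higher (0.0885%) and 30 lower (0.241%). Leaving out 1 library at a time gave 7 calls in precursors without Sevoflurane 2, 14 without Sevoflurane 1 and 47 without Sevoflurane 3, and 1 call in mature oligodendrocytes without Sevoflurane 2 and 77 without Sevoflurane 1. These counts cannot be set against the 1 call in committed and newly formed cells without a test of the difference, since those cells had far fewer UMIs. In a fit over both stages that held each library as a block and tested the interaction term, 0 of 6990 genes differed in their response between committed and newly formed cells and precursors (0% by edgeR; 342 at an unadjusted p under 0.05, and 0 by DESeq2). Against mature oligodendrocytes, 3 of 10607 genes differed (0.0283%), 2 with a higher effect (0.0189%) and 1 with a lower one (0.00943%), and DESeq2 called 0. These were Cntn5, Fgf13 and Cldn14, and the count was 0 without Sevoflurane 3, 10 without Sevoflurane 1 and 12 without Sevoflurane 2.

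For Fgf13 the values rest mainly on 1 cell, with 80.7% of its UMIs. The same cell held 46.2% of the UMIs of Cntn5, which had a UMI in 33 of the 141 cells. Fgf13 had 7, 6 and 122 UMIs in Sevoflurane and 3, 2 and 5 UMIs in Control, and 117 of its 145 UMIs lay in 1 cell of Sevoflurane 3 with 18027 UMIs, the most of all 141. Cntn5 had 5, 16 and 61 UMIs in Sevoflurane and 5, 2 and 2 UMIs in Control, and 42 of its 91 UMIs lay in the same cell. That cell passed the neuron gate, held 281 UMIs of neuron markers and was among the 13 removed by the doublet caller. Without the marked doublets, the difference of Fgf13 was -0.02 and neither gene was called.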

How the data were processed

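The deposited files hold UMI counts per gene and cell barcode of 6 droplet libraries, 1 per mouse; per the file headers they were written by Cell Ranger 6.1.1, and the submitters' processing notes name CASAVA 1.8, Cell Ranger and Seurat. The genome build, annotation and strand setting of the counting are not given in the sources used here. The deposited barcodes were kept at 500 UMIs, 300 genes and at most 20% mitochondrial UMIs, 50287 cells in all, 7042 to 9758 per library from 54426522 to 70741809 UMIs. Of the 31253 gene identifiers, 99.8% matched GENCODE M21, from which positions were taken.

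Cells were classed by UMI thresholds on fixed genes, with committed and newly formed cells taking precedence over precursors and these over mature oligodendrocytes. The members, the gene lists and the tests were chosen with earlier results of these data known. Doublets were marked with Scrublet (5.64 to 7.81% of cells) and kept, and their removal was an alternative. Counts were summed per library and stage and tested with edgeR 4.0.16 (quasi-likelihood test, TMM, filterByExpr, Benjamini-Hochberg adjustment over all genes tested, threshold 0.05) in R 4.3.3 with limma 3.58.1. Differences between stages were tested as an interaction with the library as a block. Shares were compared by two-sided exact permutation tests over libraries. Scripts ran under Python 3.11.15 with scanpy 1.11.5, numpy 2.4.6, scipy 1.17.1 and pandas 2.3.3, and the tests were checked on simulated data.

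The genes named are those of the rule and the lists, the 10 genes with the smallest p between the groups, the genes called in a difference of effects, and, between stages, the 20 genes with the largest smaller ratio to both neighbours at 200 CPM and 10 lower ones. Alternatives were DESeq2 1.42.0, no filter on low counts, removal of doublets, a stricter gate, thinning to 2000 UMIs, 1000 UMIs per cell as a minimum, removal of a trend with gene span, a replicate block, each library left out and, added after seeing the data, cells that pass no other gate. Counts limit precision: genes with few UMIs in 141 cells could not be tested, and 28992 genes fell below the filter.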

Additional observations from a re-analysis of the deposited data

Results flagged for a closer look

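The edgeR test of the interaction, adjusted over 10607 genes, called 3 genes, and DESeq2 called 0. In these 3 the log2 fold change differed between committed and newly formed cells and mature oligodendrocytes. For Fgf13, a gene of the fibroblast growth factor family, the log2 fold change was higher by 2.81 (adjusted p = 0.0442). For Cntn5, which encodes a contactin, it was higher by 2.69 (adjusted p = 0.0376). For Cldn14, a claudin gene, it was different by -2.15 (adjusted p = 0.0442), with 91.6, 0 and 120 CPM in Sevoflurane and 361, 77.2 and 134 CPM in Control, so that the groups overlapped in committed and newly formed cells. Of the 93 UMIs of Cldn14, 33 lay in 1 cell of Control 1 with 15109 UMIs that also passed the mature gate, and without that library the difference was -1.78 (adjusted p = 0.343). It was -0.45 over the cells that pass no other gate (adjusted p = 1), -2.39 with DESeq2 (adjusted p = 1), -1.59 without Sevoflurane 2 (adjusted p = 0.205) and -2.84 without Sevoflurane 3 (adjusted p = 0.137), none of them called. Fgf13 and Cntn5 were not called without Sevoflurane 3 (0.83 and 1.76), without Control 2 (2.58 and 2.50), with DESeq2 (2.13 and 2.45), with a stricter gate (0.78 and 1.17) or over the cells that pass no other gate (1.11 and 1.79). Of their UMIs in committed and newly formed cells, 117 of 145 and 42 of 91 lay in 1 cell of Sevoflurane 3. That cell passed the neuron gate and was marked as a doublet, and neither gene was called without doublets.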

How the results depend on the processing

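With cells thinned to 2000 UMIs, the differences in share turned to -0.00231 points of all cells, -0.309 points of the 3 stages and -1.3 per 100 precursors. Leaving out 1 library at a time moved them between -0.0097 and 0.0451, between -0.188 and 0.589 and between -0.75 and 4.51, and the difference in newly formed cells between -8.67 and 1.75 points, each with a change of sign without Control 1, the share of all cells and the number per 100 precursors also without Sevoflurane 3 (-0.00227 and -0.452), and the share of the 3 stages also without Sevoflurane 2 (-0.0259). In committed and newly formed cells the 1 call became 2 with DESeq2, 13 with no filter on low counts, 0 with a stricter gate, where Ttr was not among the genes tested, and 2 with the replicate block. It was 0 without Control 3 or Sevoflurane 3 and 2 without Control 2 or Sevoflurane 1. The 34 calls in precursors became 94 with DESeq2, 101 with no filter and 3 with the trend in gene span removed, and lay between 7 and 47 with 1 library left out. The 41 calls in mature oligodendrocytes became 130, 429 with no filter, 66 without doublets and 25 with the replicate block, and lay between 1 and 77. For the difference from precursors the count was 6 with no filter and lay between 0 and 1, the 1 without Sevoflurane 1. For the difference from mature oligodendrocytes it was 0 with DESeq2, 8 with no filter, 1 without doublets, 5 with a stricter gate, 0 over cells that pass no other gate and 7 with the span trend removed, and lay between 0 and 12. The difference of Fgf13 was -0.02 without doublets. The causes of these changes were not tested. Over cells that pass no other gate, the median of the stage genes was 0.08 and that of the precursor genes -0.34. Same-numbered libraries did not deviate together (correlations of 0.0499, 0.0459 and -0.0819), so the numbers were not taken as pairs. With the block, exact sign-flip tests gave p of 0.25 for the share of all cells and 0.75 for that of the 3 stages. The number per 100 precursors gave 0.25, and 0.25 is the smallest p that this test can give. Precursors had 27 calls with the block. Depth is one limit: the test reached 2261 genes in committed and newly formed cells, against 8517 in precursors.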
